A study of Homo sapiens with 4 samples.

Results

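Chromosome 19 is the most gene-dense human chromosome, and its chromatin loops and contact domains were followed in MDA-MB-231 cells, an established triple-negative breast cancer line. Its members were chosen by position alone, as every loop and every domain with its first end on chromosome 19 of the GRCh37 build. In vehicle replicates 1 and 2 and THZ1 replicates 1 and 2, the order used throughout, they came to 836, 967, 577 and 497 of the 20768, 24219, 17222 and 15066 loops of the genome. The chromosome also held 20, 35, 55 and 55 of 1198, 1398, 2477 and 2345 domains. Hi-C, which counts ligated pairs of fragments that lay close together in the nucleus, was run on cells given DMSO as vehicle or 75 nM THZ1, a covalent inhibitor of the transcriptional kinase CDK7, and the question was how loss of CDK7 activity alters the folding of chromosomes. All cells were labelled wild type and were collected at 48 h, with 2 libraries per condition. The labels call the libraries technical replicates, so the spread between them may leave out differences between cultures. Loop and domain lists carry no expression values, so the identity of the cells could not be checked against marker genes.

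A loop in these lists is a pair of anchors, 5, 10 or 25 kb wide, that touch each other more often than the surrounding map would give. In interphase many loops form when cohesin extrudes chromatin until it meets CTCF bound to motifs that point towards each other, while other contacts join promoters and enhancers of active genes. A contact domain is a stretch whose loci touch one another more than they touch loci outside it. Chromosome 19 carries large families of tandem genes, above all the zinc-finger (ZNF) transcription factors, many of them KRAB repressors of retroelements, beside the kallikrein, apolipoprotein and leukocyte receptor clusters.

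CTCF motifs facing each other at loops that all 4 libraries called with identical anchors are shown first, because these loops carry the sequence signature of extrusion. The motif searched on both strands was CCNCNAG followed directly by NNGGCNC, where N is any base, and capitals mark its 14 bases within 30 bases of the strand that holds the match. Of 83 loops with identical anchors in the 4 lists, 6 had exactly 1 match in each anchor in the convergent orientation. A forward match at chr19:6517050-6517079, outside protein-coding genes, was shared by 3 of them and paired with 3 reverse matches farther along the chromosome. The first of these lay at chr19:6633405-6633434 outside protein-coding genes, the next at chr19:6737465-6737494 in coding sequence of GPR108, a Golgi membrane protein, and the last at chr19:6863752-6863781 outside protein-coding genes.
chr19 6.5 Mb, plus strand: ctccaggtCCACCAGGGGGCGCccgctgcc
chr19 6.6 Mb, minus strand: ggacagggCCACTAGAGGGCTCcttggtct
chr19 6.7 Mb, minus strand: gggcgcatCCACCAGCTGGCGCtgacggtg
chr19 6.9 Mb, minus strand: accgaaggCCACCAGAGGGCACtacatagc

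The other convergent pairs lay in loops between KDM4B and an anchor at the start of TINCR, between PNMA8B and an anchor outside protein-coding genes, and between SCGB2B2 and another such anchor. KDM4B encodes a histone H3K9 demethylase, and its intron held the forward match at chr19:5048449-5048478 facing the reverse match at chr19:5578400-5578429, which lay in no protein-coding gene. The PNMA8B pair lay at chr19:46905633-46905662 and chr19:46991267-46991296, and the SCGB2B2 pair at chr19:35130572-35130601 and chr19:35203764-35203793. All coordinates are GRCh37.
KDM4B intron, plus strand: tccaagggCCGCTAGGTGGCGCtcccgccc
chr19 5.6 Mb, minus strand: ccatgtgcCCACTAGGTGGCGCccaagagc
chr19 46.9 Mb, plus strand: cccagctgCCGCCAGGGGGCGCaacgtggc
PNMA8B intron, minus strand: cgctgattCCACCAGGAGGCACcccagttc
SCGB2B2 intron, plus strand: ctcaaacaCCACCAGGAGGCGCtcttttcc
chr19 35.2 Mb, minus strand: ttatatttCCACTAGGTGGCGCtgttggct

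Loop number on chromosome 19 was lower with THZ1, by more than elsewhere in the genome, and the excess was seen among loops over 90 kb and among loops with gene starts at both anchors. Over 55.8 Mb of sequenced bases, there were 15.0, 17.3, 10.3 and 8.91 loops per Mb. Both vehicle values lay above both THZ1 values. The log2 ratio of the THZ1 mean to the vehicle mean was −0.75 ± 0.21 (SD from the libraries, n = 2 per group), against −0.47 ± 0.21 for all other chromosomes. As a share of all loops, chromosome 19 held 4.03% (95% Wilson interval 3.77 to 4.30) and 3.99% (3.75 to 4.25) in vehicle, and 3.35% (3.09 to 3.63) and 3.30% (3.03 to 3.60) with THZ1. The mean log2 share differed by −0.27 ± 0.02 (SD, n = 2 per group), more than the spread between libraries. With 2 libraries against 2, the exact two-sided permutation test cannot go below p = 0.33, which this difference reached. Of 63 values compared in this way, adjusted p was 0.396 at the lowest (Benjamini-Hochberg), so the permutation tests separate none of them.

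With 1480 protein-coding genes, chromosome 19 had 26.5 genes per Mb, the highest of 23 chromosomes, and it also had the most loops per Mb in both conditions. Per gene it was poor in loops. There were 0.565, 0.653, 0.390 and 0.336 loops per protein-coding gene, against 1.07, 1.25, 0.894 and 0.783 on the other chromosomes. Its log2 ratio of loop number was the lowest of the 23. The chromosomes next in gene density were 17, 22 and 16, with log2 ratios of −0.48 ± 0.20, −0.63 ± 0.23 and −0.63 ± 0.28 (SD, n = 2 per group). As a share of the loops of chromosomes 19, 17, 22 and 16 together, the log2 value of chromosome 19 differed by −0.14 ± 0.01 (SD, n = 2 per group). Chromosome 19 is itself a large part of that total, which makes the difference smaller. Its size therefore cannot be compared with that of the share of the whole genome.

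**Figure D1:**
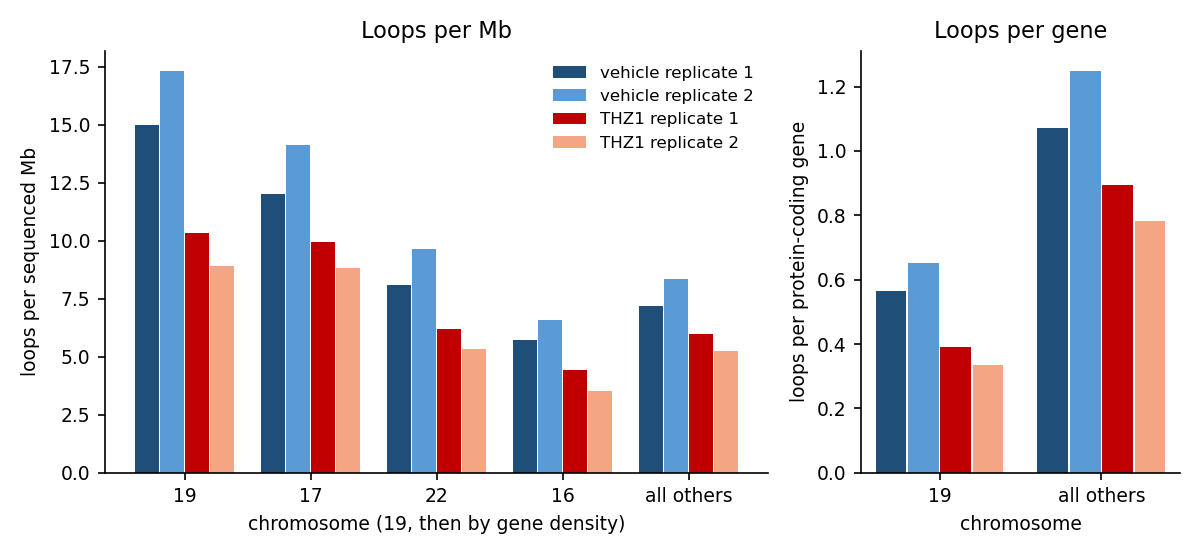
Loops per sequenced Mb (left) and per protein-coding gene (right) in each of the 4 libraries, 1 bar per library, for chromosome 19 and all other chromosomes together, with the next 3 chromosomes in gene density also shown on the left. Chromosome 19 has the tallest vehicle bars per Mb, 15.0 and 17.3, and shorter bars than the rest per gene, 0.565 and 0.653 in vehicle.

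Both arms held fewer loops with THZ1. The short arm held 395, 468, 285 and 239 loops and the long arm 439, 497, 290 and 257. Their log2 ratios were −0.72 ± 0.25 and −0.77 ± 0.18 (SD, n = 2 per group). The fall was carried by the finer anchors. Loops with 5 kb anchors numbered 582, 731, 375 and 282, those with 10 kb anchors 189, 171, 132 and 145, and those with 25 kb anchors 65, 65, 70 and 70, so that the last class was slightly higher with THZ1. The study gives sequencing depth as a range over samples and not per library, and the part that sequencing depth played in the number of calls was not tested.

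Small loops fell most. The median size was 90, 90, 110 and 110 kb, against 140, 145, 205 and 205 kb on the other chromosomes. The share of loops spanning at most 90 kb, a limit taken from the study's text, was 51.6% and 52.1% in vehicle and 42.5% and 43.9% with THZ1. Elsewhere in the genome it was 36.7%, 36.2%, 25.6% and 24.9%. Chromosome 19 thus kept a shorter loop spectrum than the rest in every library, and its own shift of −8.68 ± 1.07 percentage points exceeded the spread between libraries. Within 1 anchor width it did not, at −3.77 ± 3.79 points for 5 kb anchors and −3.52 ± 5.01 for 10 kb anchors (SD, n = 2 per group). From the shortest to the longest of 5 size classes, the log2 ratio of loop number on chromosome 19 went from −1.11 at up to 50 kb through −0.92, −0.75 and −0.55 to −0.08 above 300 kb. The matching values elsewhere were −1.16, −0.84, −0.56, −0.34 and 0.01. Among loops of 90 kb or less, chromosome 19 did not stand apart: its log2 share differed by −0.017 ± 0.047. Among longer loops it differed by −0.27 ± 0.06 (both SD, n = 2 per group; a split made after the data were seen).

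Loops at gene starts fell most. Loops with a protein-coding gene start in both anchors numbered 268, 306, 149 and 119, a log2 ratio of −1.10 ± 0.27. With a gene start in 1 anchor there were 344, 411, 226 and 197, a log2 ratio of −0.84 ± 0.23. Loops with none numbered 224, 250, 202 and 181, a log2 ratio of −0.31 ± 0.16. On the other chromosomes the same classes gave −0.69 ± 0.20, −0.64 ± 0.21 and −0.35 ± 0.21 (all SD, n = 2 per group). The order of the classes on chromosome 19 went with gene starts, and the values of the first and the last class lay farther apart than either SD.

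Relative to the same class elsewhere, chromosome 19 differed by −0.41 ± 0.11 for gene starts at both anchors, −0.20 ± 0.02 for 1 anchor and 0.039 ± 0.052 for none. The chromosome's excess loss was therefore not seen among loops without a gene start. Crossed with size, loops of 90 kb or less differed by −0.21 ± 0.11 with gene starts at both anchors, by −0.015 ± 0.060 with 1 and by 0.27 ± 0.11 with none, the last being a smaller loss than elsewhere. Loops over 90 kb differed by −0.47 ± 0.24, −0.16 ± 0.11 and 0.070 ± 0.170 (all SD, n = 2 per group). Loops with gene starts at both anchors made up 32.1% and 31.6% of the chromosome's loops in vehicle and 25.8% and 23.9% with THZ1, and loops with none rose from 26.8% and 25.9% to 35.0% and 36.4%. The 5 kb anchors still held a gene start far more often than the chromosome's 5 kb bins in general, with 44.8%, 46.6%, 39.7% and 38.7% against 11.4%. Whether a gene start at an anchor reflects transcription in these cells was not measured.

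**Figure D2:**
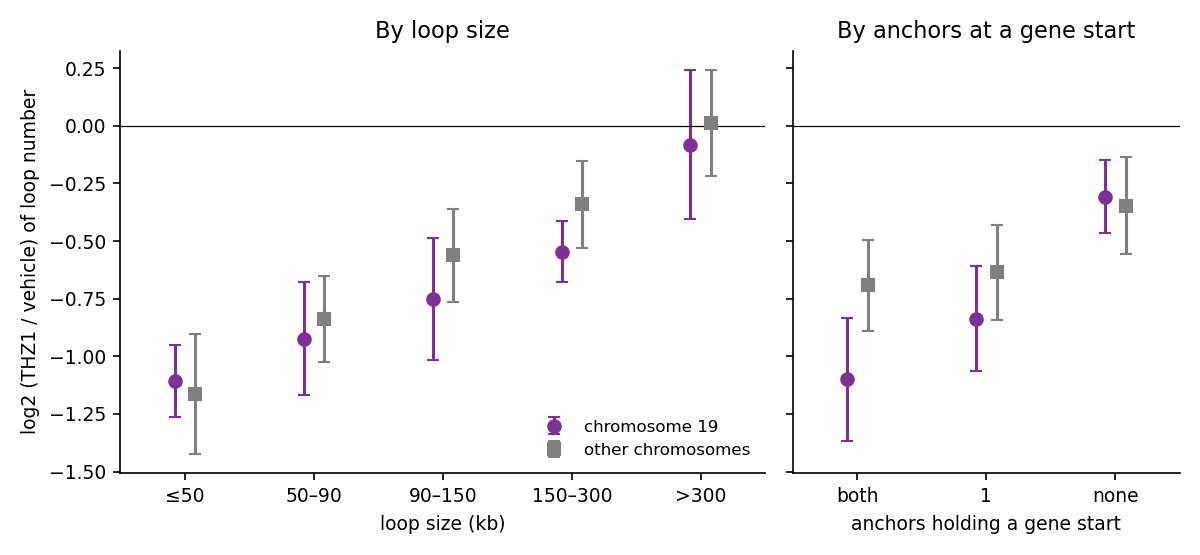
Log2 ratio of the THZ1 mean to the vehicle mean of loop number, by loop size (left) and by how many of the anchors hold a protein-coding gene start (right), with bars of 1 SD from the 2 libraries per group. Chromosome 19 lies near the other chromosomes at up to 50 kb (−1.11 and −1.16) and for loops without a gene start (−0.31 and −0.35), and below them for gene starts at both anchors (−1.10 and −0.69).

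The fall was spread along the chromosome, with a few segments holding more than their part. Of 58 windows of 1 Mb that held a loop in any library, both THZ1 counts were below both vehicle counts in 39 (67.2%), against 43.8% of 2515 windows in the whole genome. Both THZ1 counts were above both vehicle counts in 2 windows (3.45%), against 3.5% of the genome's windows. Windows with many loops separate more easily, and chromosome 19 windows held a median of 13.1 loops against 6.25 elsewhere. Among windows with a mean of over 10 to 20 loops, 24 of 27 on chromosome 19 (88.9%) and 71.6% of 631 elsewhere were lower with THZ1. Among those with over 5 to 10 loops the shares were 41.7% of 12 and 49.3% of 720.

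The 10 windows with the largest falls held 40.2% of the net difference and 31.1% of the vehicle loops. Across the 58 windows, the vehicle mean went with the number of gene starts (Pearson r = 0.675) and with the THZ1 mean (r = 0.894), both given as descriptions of windows that share libraries. The segment from 53 to 54 Mb fell furthest, with 24, 34, 12 and 7 loops. It is a ZNF cluster, in which 21 of 27 protein-coding gene starts belong to ZNF genes, and 8 loops called in both vehicle libraries and neither THZ1 library lay there, 7 of them at gene starts that include ZNF160, ZNF347, ZNF611, ZNF665 and ZNF808.

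From 12 to 13 Mb the counts were 36, 45, 22 and 21. This was the window with the most vehicle loops on the chromosome, and 7 vehicle-only loops lay in it, at starts such as ZNF136, ZNF442, ZNF564 and ZNF799, and at those of DHPS, which makes the hypusine precursor of eIF5A, and TNPO2, a nuclear import receptor. The segment from 45 to 46 Mb went from 33 and 34 loops to 16 and 13. Few of its genes are ZNF genes. Of its 8 vehicle-only loops, 7 touched gene starts, among them those of ERCC1, a nuclease subunit of nucleotide excision repair, RELB, a subunit of NF-κB, MARK4, a microtubule affinity kinase, CLPTM1, TOMM40, the pore of the mitochondrial import complex, and POLR1G, a subunit of RNA polymerase I.

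Between 44 and 45 Mb, another ZNF cluster with 22 ZNF starts among 37, the counts were 24, 27, 13 and 10, and the 7 vehicle-only loops there all had ZNF genes at their starts, ZNF45, ZNF221, ZNF224 and ZNF225 among them. Between 36 and 37 Mb they were 19, 23, 8 and 6, with 6 vehicle-only loops at starts that include KMT2B, a histone H3K4 methyltransferase, POLR2I, a subunit of RNA polymerase II, NFKBID, a nuclear IκB protein, and COX6B1 of cytochrome c oxidase. The start of KMT2B also lay at the 1 loop of this window called in both THZ1 libraries and neither vehicle library. These 5 segments were picked among windows where the groups did not overlap, so that separation follows from the choice.

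Both windows that rose were sparse in loops. From 51 to 52 Mb, which holds the kallikrein genes and SIGLEC receptors among 42 gene starts, the counts were 2, 6, 7 and 8. From 28 to 29 Mb, next to the centromere and without a protein-coding gene start, they were 1, 1, 4 and 2. Neither call was kept when the windows were shifted by 0.5 Mb, which left 0 windows higher.

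**Figure D3:**
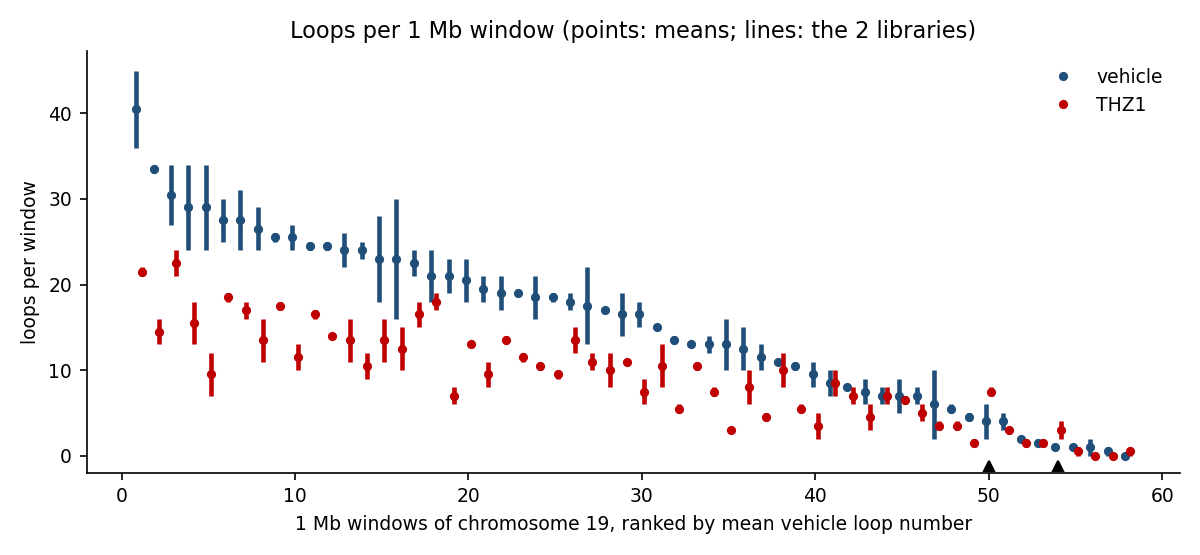
Loops in each of 58 windows of 1 Mb on chromosome 19, ranked by mean vehicle loop number, with points for the mean of each condition, lines joining its 2 libraries and triangles under the 2 windows where both THZ1 counts are higher. THZ1 lies below vehicle in 39 windows, most of them among those with many loops.

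At single genes the same direction prevailed. Of 1480 protein-coding genes, 870 had a loop at their start in at least 1 library, and together they had 1181, 1318, 678 and 563. A lower count in both THZ1 libraries than in both vehicle libraries was seen at 265 of the 870 (30.5%), against 22.1% of 10706 such genes in the genome. A higher count was seen at 29 (3.33%), against 2.79%. Gene starts within 1 anchor share its loops, so neighbouring genes are not independent.

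ZNF genes had 251, 323, 126 and 101 loops at their starts. Of 162 with a loop, 64 were lower (39.5%, against 30.5% of all chromosome 19 genes with a loop). Another 4 were higher (2.47%, against 3.33%). ZNF genes are near copies of each other in tandem, and how reads with several matches were treated is not given in the sources used here. ZNF93, a KRAB repressor of L1 elements, went from 6 and 6 loops to 1 and 2, and ZNF225 from 6 and 5 to 1 and 1.

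DNA repair genes and subunits of general transcription factors, 5 of 7 listed genes with a loop, had 10, 9, 4 and 3. ERCC1 went from 3 and 2 loops to 1 and 1, and LIG1, the replicative DNA ligase, from 1 and 3 to 0 and 0. ERCC2, the XPD helicase of TFIIH, the complex that holds CDK7, had 1 loop in each library. In the list of chromatin and transcription genes, with 11, 10, 5 and 2 loops, 2 of 7 were lower (28.6%, below the 30.5% of all chromosome 19 genes with a loop): KMT2B with 5, 3, 1 and 1 and POLR2I with 2, 1, 0 and 0. TRIM28, the KRAB co-repressor, had none in any library.

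Signalling genes linked with breast cancer had 26, 25, 13 and 10 loops. Of 18 with a loop, 7 were lower (38.9%, against 30.5% of all chromosome 19 genes with a loop) and none was higher. PLAUR, the urokinase receptor, went from 6 and 5 to 3 and 3, KLF2, a zinc-finger factor, from 2 and 2 to 0 and 0, and AXL, a receptor tyrosine kinase, from 1 and 1 to 0 and 0. MAP2K7, a kinase of the JNK pathway, KEAP1, the adaptor that targets NRF2, GDF15, a stress cytokine, and RELB were the others that were lower. TGFB1 had 1, 2, 1 and 1 loops and CCNE1, cyclin E1, 1 in each library.

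In the AP-1 list JUND had 2, 2, 1 and 1 loops and JUNB 1, 1, 1 and 0. The apolipoprotein cluster had 7, 9, 5 and 3, where TOMM40 and APOC1 went from 1 and 1 to 0 and 0 and APOE had 2, 1, 1 and 0.

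Other families had few loops to lose. None of the 15 kallikrein genes had a loop at its start in any library. CEACAM and PSG genes had 8, 5, 4 and 5, leukocyte receptor genes 3, 1, 4 and 2, and ribosomal protein genes 5, 6, 6 and 4, with none of these lower or higher by the same rule. Cytochrome P450 genes had 3, 1, 4 and 4, and CYP2S1 was higher, with 0, 0, 1 and 1. A single loop decides such values.

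Loops that all 4 libraries called, matched when both anchor midpoints lay within 20 kb, numbered 284. The overlap of lists, as a Jaccard index, was 0.539 for the vehicle pair, 0.493 for the THZ1 pair and 0.380 to 0.435 across conditions. Loops of both vehicle libraries and neither THZ1 library numbered 164, and loops of both THZ1 libraries and neither vehicle library 25. Membership in these sets follows from the calls themselves, and their sizes are a description. The vehicle-only loops had a median size of 70 kb and 67.1% were 90 kb or less, against 370 kb and 4% for the THZ1-only loops. What the rule did not use also differed. A gene start lay in an anchor of 139 of the 164 vehicle-only loops (84.8%), of 169 of the 284 loops in all libraries (59.5%) and of 13 of the 25 THZ1-only loops (52%). Over all loops of the chromosome, 26.8% and 25.9% in vehicle and 35.0% and 36.4% with THZ1 had no gene start in an anchor. Loops called in vehicle replicate 1 and in no other library, 150 in number, had a gene start in 75.3%, so that loops found once also held gene starts more often than loops found in all libraries. The vehicle-only loops came to 163 when neither vehicle call was allowed a THZ1 counterpart. The CTCF motif lay in an anchor of 26.8%, 32.0% and 60% of them, but the anchors of THZ1-only loops were mostly wider. Among loops with 5 kb anchors the shares with a motif were 23.1% of 121 vehicle-only and 29.1% of 227 shared loops.

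The strongest vehicle-only loop joined chr19:15785001-15790000, in an exon of CYP4F12, a fatty acid hydroxylase, with chr19:15885001-15890000, and had 17 and 22 observed contacts where 0.365 and 0.457 were expected. The next joined LONP1, the mitochondrial Lon protease, with the starts of NDUFA11, an assembly subunit of complex I, and VMAC (chr19:5715001-5905000), with 17 and 29 contacts where 2.37 and 2.39 were expected. The other 3 of the 5 strongest linked ZNF genes, ZNF700 with ZNF20 (37 and 29 contacts), ZNF527 with ZNF570 (18 and 15) and ZNF570 with ZFP30 (16 and 17). The largest expected counts among these were 3.39 and 3.84, at ZNF700.

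The strongest THZ1-only loop ran from an exon of SSC5D, a scavenger receptor, to chr19:56140001-56145000, with 34 and 35 contacts where 4.33 and 3.88 were expected. A loop of 940 kb next to the centromere (chr19:28260001-29210000) had 17 and 17 contacts. BCAT2, which transaminates branched-chain amino acids, was joined with TRPM4, a cation channel, by 19 and 25 contacts, and an anchor at BRME1 and NANOS3 with an intron of ADGRL1, a latrophilin receptor, by 19 and 19. A loop of 75 kb within an intron of ZSCAN5A had 19 and 19 contacts. No gene start lay in an anchor of any of these 5.

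The largest loop in all 4 libraries, 4675 kb, spanned the unsequenced centromere. In vehicle it joined chr19:23630001-23635000 with chr19:28305001-28310000, by 14 and 17 contacts. With THZ1 it was called at 25 kb anchors, chr19:23625001-23650000 and chr19:28300001-28325000, with 14 and 14 contacts. Contacts at anchors of unlike width cannot be compared. Its expected count was under 0.1 in vehicle, so no strength was taken from it.

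Where a loop had identical anchors in all 4 lists, its strength, the log2 of observed over donut-expected contacts, was lower with THZ1 at nearly every locus. Of the 83 such loops on chromosome 19, 76 had a negative log2 change, and the median strength was 2.88 and 2.90 in vehicle and 2.39 and 2.41 with THZ1. edgeR's quasi-likelihood test, fitted over 2614 loops of the genome, called 26 of the 83 lower (31.3%) and 1 higher at an adjusted p of 0.05. In the genome 27.4% were lower and 0.0383% higher. The latter is that same loop, as 0 of 2531 loops on the other chromosomes were higher. The median log2 change was −0.43 on chromosome 19 and −0.41 elsewhere, so the chromosome did not stand apart in strength. Summed over the 83 loops, observed contacts were 3532, 4102, 3601 and 3281, which overlap between conditions, while expected contacts were 503, 573, 671 and 637, higher in both THZ1 libraries. On observed counts scaled by TMM, without the expectation, the medians were −0.10 on chromosome 19 and 0.00 elsewhere, and calls were 7 lower and 1 higher on the chromosome and 108 lower and 67 higher in the genome. The calls rest on all 4 libraries: 7 were lower without vehicle replicate 1, and 0 without vehicle replicate 2, THZ1 replicate 1 or THZ1 replicate 2, where 31, 30 and 28 loops had an unadjusted p under 0.05. DESeq2 called 0 (16 at an unadjusted p under 0.05), and edgeR called 0 of 283 loops matched within 20 kb (60 at an unadjusted p under 0.05). That matching ignored anchor width, so it can set contacts against each other that are not comparable, and its 0 calls decide nothing about strength.

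Among the 27 loops past the threshold, each had its 2 THZ1 values on the same side of both vehicle values. The largest fall joined exons of ZNF28 and ZNF468 (chr19:53320001-53360000), where strength went from 3.64 and 3.50 to 2.37 and 2.41, a log2 change of −1.17 ± 0.24 (SE; edgeR adjusted p = 0.00401). The contacts there were 28, 29, 18 and 19. A 675 kb loop between the starts of ZNF83 and ZNF525 (chr19:53190001-53870000) went from 5.83 and 5.81 to 5.0 and 4.28, with 31, 34, 21 and 14 contacts. Both lie in the 53 to 54 Mb segment with the largest loss of calls.

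SUPT5H, a subunit of the elongation factor DSIF, was joined with the start of TIMM50, a mitochondrial translocase subunit (chr19:39935001-39975000), with a strength of 2.94 and 2.89 in vehicle and 2.16 and 1.39 with THZ1. Between ZNF616 and PPP2R1A, the scaffold of phosphatase PP2A (chr19:52640001-52695000), it was 2.29, 2.67, 1.35 and 1.54. Near the centromere (chr19:23475001-23635000), outside protein-coding genes, it was 5.83, 5.11, 4.64 and 4.32. The 3 log2 changes were −1.11, −1.06 and −1.02.

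The 1 loop that rose ran from an exon of POP4, a subunit of RNase P, to chr19:30180001-30185000. Its contacts were 28, 33, 60 and 50 and its strength 3.50, 3.57, 4.21 and 3.99, a log2 change of 0.57 ± 0.20 (SE; edgeR adjusted p = 0.0457). CCNE1, which encodes cyclin E1, lies farther along the chromosome, and a loop of 35 kb from its start had a strength of 2.57, 2.52, 1.86 and 1.70 (edgeR adjusted p = 0.0266).

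Calls of weaker loops were most frequent where no anchor held a CTCF motif, though the difference between these classes was not tested. With no match in either anchor, 22 of 54 were lower (40.7%) with a median log2 change of −0.51. A match in 1 anchor gave 3 of 20 (15%) and −0.32, and matches in both gave 1 of 9 (11.1%) and −0.22. The same calls also differed by size, with 20 of 53 (37.7%) and −0.50 at 90 kb or less. Above 90 kb they were 6 of 30 (20%) and −0.31. Motif and size were not separated. The 6 convergent loops whose sequences are printed above had changes of −0.59 to −0.17, none past the threshold. The 3 that share the forward match at 6.5 Mb went from 3.23 and 2.93 to 3.09 and 2.62 (115 kb), from 3.04 and 3.68 to 2.96 and 2.59 (220 kb) and from 3.05 and 3.41 to 2.65 and 3.44 (345 kb). The groups of the first and the last overlapped. The loop between the GPR108 match and the 6.9 Mb match, both on the minus strand, was the only one with matches in both anchors that was lower, with 77, 102, 76 and 59 contacts and a log2 change of −0.59 ± 0.17 (SE; edgeR adjusted p = 0.0182). Loops without a motif were also weaker to begin with, with a median vehicle strength of 2.76 and 2.72 against 3.23 and 3.41 for matches in both anchors.

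**Figure D4:**
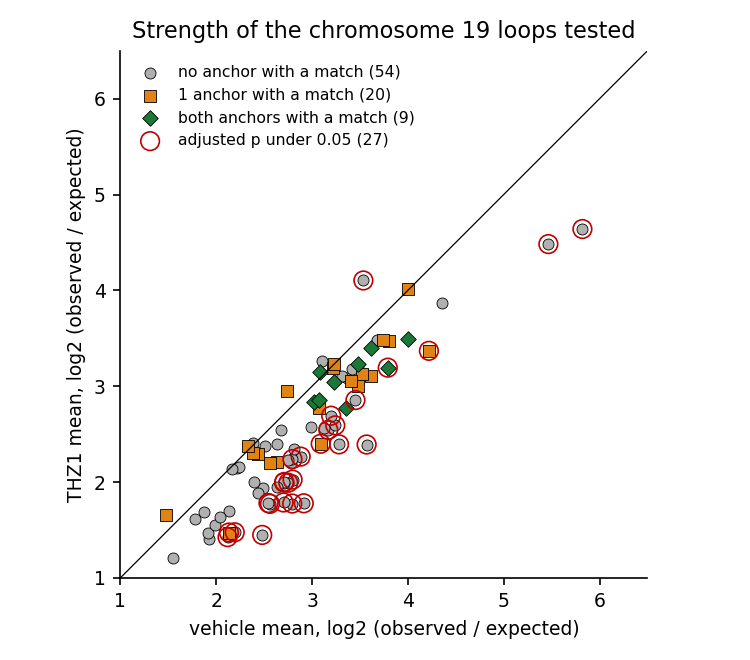
Mean THZ1 strength against mean vehicle strength, both as log2 of observed over expected contacts, for the 83 loops of chromosome 19 with identical anchors in all 4 libraries, by the number of anchors with a CTCF motif match. Of the 83, 76 lie below the line of equal strength, and 22 of the 26 circled as lower have no match in either anchor.

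Over all called loops, the motif occurred 745 times on the chromosome and lay in 6.32% of its 5 kb bins. It lay in 14.3% and 14.1% of the 5 kb anchors in vehicle and in 16.6% and 17.9% with THZ1, both THZ1 values being the higher. Loops with exactly 1 match per anchor numbered 33, 38, 33 and 36, nearly the same in each library while the total fell. At 5 kb anchors alone they numbered 19, 23, 17 and 17. Loops with a match in any anchor fell, with 257, 298, 220 and 194. Loops with 25 kb anchors made up 7.78%, 6.72%, 12.1% and 14.1% of the lists, and 26.2% of 25 kb bins held a match. Of the loops with 1 match per anchor, 15, 17, 19 and 17 were convergent. Another 14, 18, 13 and 14 pointed the same way and 4, 3, 1 and 5 diverged. The convergent share was 45.5%, 44.7%, 57.6% and 47.2%, a difference of 7.30 ± 7.34 percentage points (SD, n = 2 per group) that did not exceed the spread. A motif without its last 2 bases gave 46.2%, 43.9%, 50.7% and 56.3%, a difference of 8.49 ± 4.32 points that did, and 5 kb anchors alone 16.5 ± 9.55, while loops with every FDR at 0.01 or less gave 0.546 ± 13.2. With no gene start in either anchor, 9 of 13, 11 of 14, 12 of 15 and 12 of 16 such loops were convergent. With gene starts in both anchors, 0 of 7, 6, 3 and 2 were, but with the shorter motif 5 of 22, 11 of 33, 5 of 14 and 5 of 12 were. A match is a description of the letters and not a measured CTCF site.

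Domains went the other way from loops. THZ1 libraries held 55 domains each against 20 and 35 in vehicle, a log2 ratio of 1.00 ± 0.57 (SD, n = 2 per group), or 0.986 per Mb against 0.358 and 0.627. The other chromosomes had 0.424, 0.490, 0.871 and 0.824 per Mb. Chromosome 19 held 1.67%, 2.50%, 2.22% and 2.35% of all domains, and these overlapped between conditions, so its domain gain was not told apart from the rest. The vehicle libraries differ strongly from each other here.

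Domains on chromosome 19 were short. The median was 150, 160, 190 and 180 kb. Domains of up to 200 kb numbered 18, 26, 34 and 35, those over 200 to 300 kb 1, 4, 13 and 15, those over 300 and under 600 kb 0, 0, 4 and 1, and those of 600 kb or more 1, 5, 4 and 4. Domains covered 3.76, 9.26, 13.9 and 14.0 Mb. The share of 600 kb or more was 5.0%, 14.3%, 7.27% and 7.27%, against 34.6%, 29.8%, 18.0% and 19.7% elsewhere. A loop lay at the corner of 11, 13, 22 and 18 domains. The corner score, which rises with how sharply a domain is set off, had a median of 1.08, 1.12, 1.15 and 1.07, without a separation of conditions.

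**Figure D5:**
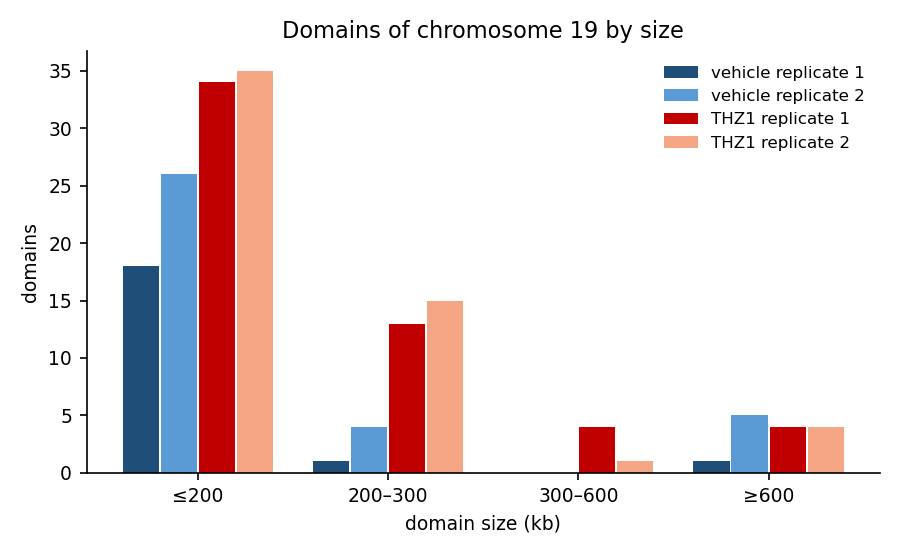
Number of domains on chromosome 19 by size in each of the 4 libraries. The class over 200 to 300 kb holds 1 and 4 domains in vehicle and 13 and 15 with THZ1.

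In all 4 libraries 9 domains recurred, the largest of them at chr19:47950001-48190000 around SLC8A2, KPTN, NAPA, ZNF541 and BICRA, with corner scores of 1.51, 1.40, 1.53 and 1.55. Matched within 20 kb at both ends from the replicate 1 call, 16 domains were in both THZ1 libraries and neither vehicle library. The domain around the IGFL genes at chr19:46530001-46770000 had vehicle counterparts at shifted ends, and 15 were left when neither THZ1 call was allowed a counterpart. The best scored, chr19:13380001-13690000, lay within CACNA1A, a neuronal calcium channel gene (1.53 and 1.42). The next, chr19:4810001-5030000 (1.44 and 1.45), held TICAM1, an adaptor of Toll-like receptors, PLIN3, UHRF1, which guides DNA methylation, and the start of KDM4B. A 100 kb loop from its left boundary to chr19:4915000, present in all libraries, was weaker with THZ1, at 4.13 and 4.31 against 3.45 and 3.28. The third, chr19:33710001-33890000 (1.47 and 1.38), held SLC7A10 and the C/EBP factors CEBPA and CEBPG, and vehicle replicate 2 had a shorter domain over the same region (chr19:33740001-33880000, 1.17).

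A THZ1-only domain of 1690 kb covered 32 gene starts of a ZNF cluster (chr19:36670001-38360000), and 1 of 890 kb (chr19:6030001-6920000) enclosed the GPR108 loops described above, as did a wider domain of vehicle replicate 2 (chr19:5960001-6930000). They were added to the named domains after their sizes were seen. In the other direction, 2 domains were in both vehicle libraries and neither THZ1 library by the replicate 1 call. That at TCF3 (chr19:1650001-1790000) was overlapped by calls in THZ1 replicate 1 (chr19:1620001-1810000) and THZ1 replicate 2 (chr19:1650001-1820000). The replicate 1 call lay within 20 kb of the vehicle replicate 2 call, which left 1 vehicle-only domain. The remaining domain lay at chr19:1940001-2090000 (0.906 and 0.925) and held CSNK1G2, BTBD2 and MKNK2, a kinase of eIF4E. THZ1 replicate 2 had a wider domain over the same region, with the same right end (chr19:1870001-2090000, 1.31). TCF3, an E-protein transcription factor, had 5, 3, 1 and 1 loops at its start.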

How the data were processed

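Arima-HiC libraries of MDA-MB-231 cells were processed by the authors with Juicer 1.6 on the hg19 build, per the labels, and the file headers name juicer_tools 1.19.02. Caller settings and read filters are not given in the sources used here, and depth is given as a range over samples and not per library. In the deposited loop lists, made per library, the observed values are raw counts of contacts at the peak pixel. Expected values, also deposited, are a signal in contacts that the caller took from the pixel's surroundings. The deposited FDR values are q-values of the loop caller. The deposited domain lists hold the Arrowhead corner score. Tables of condition-unique loops are the authors' own comparison and were not used.

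Loop size was the distance between anchor starts, and windows were assigned by loop midpoint. Genes were those of GENCODE 44 lifted to GRCh37, and a gene was at a loop when its start lay in an anchor. Loops with an expected count under 0.1 gave no strength. Libraries were compared by exact permutation over the 4 values. Of 2624 loops with identical anchors in all 4 lists, 2614 entered a fit in R 4.3.3 with edgeR 4.0.16 (quasi-likelihood, log expected as offset, Benjamini-Hochberg over all 2614), with DESeq2 1.42.0 as an alternative. On simulated data for these 2614 loops, 200 loops were changed, as many up as down, with the same dispersion for every loop. Of these, 42% were recovered, 63% of those changed 2-fold and 21% of those changed 1.5-fold, and 1 call was false. The measured loops shifted mostly down (717 calls lower and 1 higher), so the simulation does not give the error rate of the reported calls. Python 3.11.15, numpy 2.4.6, pandas 2.3.3, scipy 1.17.1 and matplotlib 3.10.9 were used. Wilson intervals cover counting error only.

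Replicate numbers did not pair the samples (correlation of deviations 0.02 over 2614 loops). Named were up to 5 tested loops with the largest change in each direction, up to 5 condition-only loops per condition by mean strength, the largest shared loop, up to 5 windows with the largest fall or rise, up to 3 condition-only domains per condition by mean score, the largest shared domain, and genes of fixed lists. The 2 ZNF genes and TCF3 given beyond the lists, and single loops and domains named for their position, were chosen after their values were seen. The chromosome, the lists and the tests were chosen with earlier results of these data known. Some members of the gene lists are not reported here by name.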

Additional observations from a re-analysis of the deposited data

How the results depend on the processing

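Depth was not given per library, so the part of a shallower library in fewer calls was not tested, and 2 libraries per group limit every comparison. Leaving out 1 library moved the log2 ratio of loop number between −0.86 and −0.64, the log2 share against the rest between −0.28 and −0.26, the share of small loops between −9.38 and −7.97 percentage points, the number of lower windows between 40 and 47 and of higher windows at 3, the log2 ratio of domains between 0.65 and 1.46, the convergent share between 2.13 and 12.5 points, the number of weaker loops between 0 and 7 and of stronger loops at 0. With the replicate number as a block (replicate block), the same values were −0.75, −0.27, −8.68 and, for domains and the convergent share, 1.06 and 7.30, with 30 weaker loops in place of 26 and 1 stronger. It moved no other result past its threshold.

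Anchors of 5 kb alone gave a log2 ratio of loop number of −0.999, a shift in small loops of −3.77 points and in the convergent share of 16.5 points. Anchors of 10 kb alone gave −0.38, a log2 share of −0.14, −3.52 points, a convergent share of −1.35 points, 12 lower and 4 higher windows. Anchors of 25 kb alone turned the loop ratio to 0.11 and the share to 0.013, and held 0 loops of 90 kb or less. The log2 share moved to −0.017 for loops of 90 kb or less and to 0.038 without gene starts. It was −0.14 as a share of the loops of chromosomes 19, 17, 22 and 16 together, a total of which chromosome 19 is a large part. These alternatives were chosen after seeing the data. Barring a counterpart of either replicate, also chosen after seeing the data, gave 163 vehicle-only and 25 THZ1-only loops and 1 vehicle-only and 15 THZ1-only domains. A limit of 60 kb gave −6.54 points. Windows of 0.5 Mb gave 63 lower of 109, and windows of 2 Mb or shifted by 0.5 Mb gave 0 higher. Domains over 200 kb alone gave a log2 ratio of 1.9. Calls of weaker loops were 0 with DESeq2 and 7 without the expectation by TMM or by DESeq2 size factors. They were 0 for 283 loops matched within 20 kb (60 at an unadjusted p under 0.05), a matching that ignored anchor width. Calls of stronger loops were 0 with DESeq2, with the bottom-left expectation and with that matching. The cause of these changes was not tested. Annotated genes of any type gave 0.289 and 0.172 loops per gene. The median log2 change in strength ranged from −0.48 (without vehicle replicate 1) to −0.10 (TMM, and size factors).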
